A study of Oryza sativa with 20 samples.

Results

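Rice (Oryza sativa) shoots were compared 50 min after the end of a 10 min heat shock, which is 1 h from the start of the bath. Heated shoots came from wild-type plants 2 weeks old whose pots were inverted so that the shoots stood in water at 42 °C for 10 min, followed by 50 min at 30 °C. Control shoots were handled alike, with the bath at 22 °C and the same 50 min at 30 °C. Each group had 2 libraries of 3 shoots each, so the comparison used 4 of the 20 libraries of a time course with 5 sampling times. All plants were inverted and immersed, and an effect of heat cannot be told apart from what the cooler bath, or the move out of it to 30 °C, did to the controls.

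Heat unfolds proteins, and plant cells answer by transcribing genes for molecular chaperones. Heat stress transcription factors bind the promoters of these genes. Small heat shock proteins hold unfolding proteins in a soluble state, HSP70 and HSP90 help them refold, and HSP100 proteins pull aggregates apart. Unfolding inside the endoplasmic reticulum sets off a separate programme, the unfolded protein response.

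Expression was given as FPKM (fragment counts scaled to transcript length and to the mapped fragments of a library), with 1 value per group that the authors made from both libraries. No SD can stand beside a level, and no p-value was computed. A gene is called higher or lower here where the authors' deposited table gave it a q-value under 0.05. The size of a difference is the log2 ratio of heated to control, computed on FPKM + 1, which understates the change of genes at low levels. The table held 37248 gene IDs, and where an ID stood on several rows the row of highest mean FPKM over the 10 groups of the series was taken. IDs averaging under 1 FPKM were set aside, which left 22568 gene IDs to compare, in 21064 distinct sets of values. No gene names came with the IDs. Gene families below are lists of IDs written from background knowledge and not checked against an annotation, so the family given for any single ID is not certain. The 26 lists held 212 IDs, all of them in the table.

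Summed FPKM was 1175511 in heated shoots at 1 h, against 819653 in control shoots, and the 10 groups of the series ranged from 661048 to 1175511. The depth of each library is unknown. IDs listed for the Rubisco small subunit and for light-harvesting proteins, both abundant in green tissue, stood at 619 to 9197 FPKM in heated shoots and at 1179 to 12477 FPKM in control shoots. The 5 IDs listed as root markers summed to 37.7 FPKM in heated shoots and 20.8 FPKM in control shoots, nearly all from OS02G0745100, which was called higher (36.7 FPKM in heated and 20.4 FPKM in control shoots, with q = 0.03 in the authors' deposited table). Another pair of these 5, OS02G0662000 and OS03G0107300, was listed at 0 in both groups. The 2 IDs listed as seed markers summed to 2.1 FPKM in heated shoots and 0.92 FPKM in control shoots. The part of root or seed cells in the results below was not tested. In whole shoots, fewer cells of a type and less RNA per cell cannot be told apart.

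By 1 h the difference between heated and control shoots was wide. The q-values of the authors' deposited table called 4676 gene IDs, 20.7% of those compared, 2702 higher (12%) and 1974 lower (8.75%) in heated shoots. The rises had larger ratios than the falls. On FPKM + 1 the size of a fall is bounded by its control level, whereas a rise has no such bound. The median log2 ratio was 1.64 among the rises, with an interquartile range of 1.13 to 2.50. It was -1.10 among the falls, with an interquartile range of -1.46 to -0.89. Over all gene IDs compared the median was -0.08. Leaving out IDs listed at 0 in either group, and by FPKM with no pseudocount, 2385 rises were at least 2-fold, 520 at least 10-fold and 67 at least 100-fold. Of the falls, 1544 were at least 2-fold, 48 at least 10-fold and 0 at least 100-fold. Another 5 falls were listed at 0 in heated shoots and 15 rises at 0 in control shoots. The smallest change called was 1.59-fold for a rise and 1.58-fold for a fall. Another 245 gene IDs carried a q shown as 0.05 in the authors' deposited table, where rounding may hide a lower q, and they were not called. With the low IDs kept in, 8.37% of 37112 IDs were called higher and 5.52% lower.

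**Figure D1:**
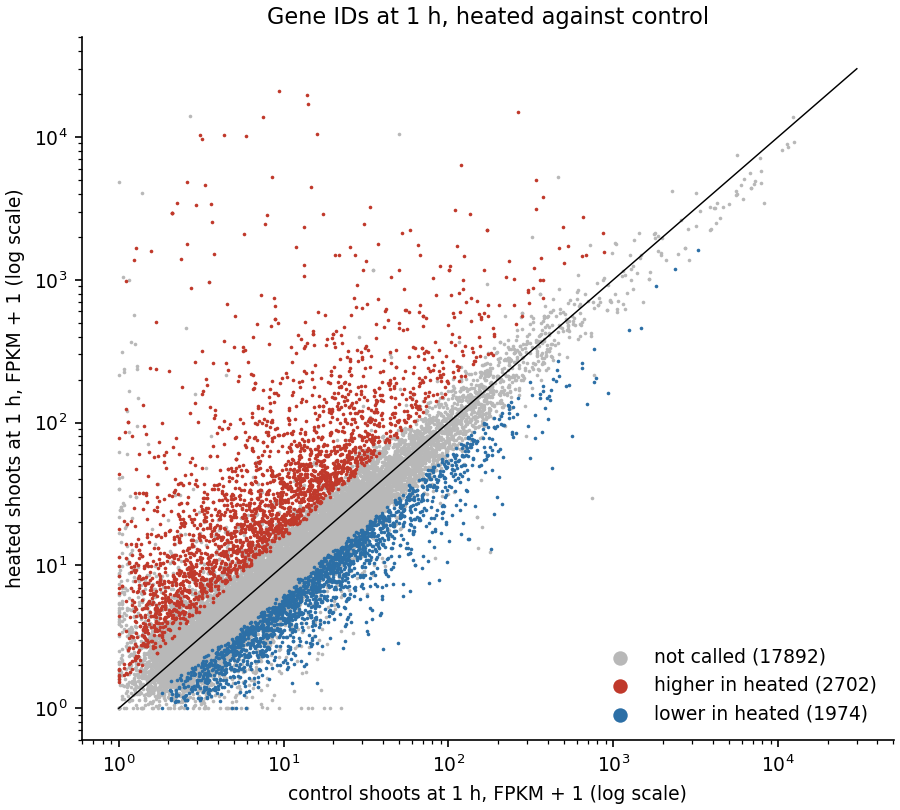
FPKM + 1 of 22568 gene IDs in heated shoots (vertical axis) and control shoots (horizontal axis) at 1 h, both on log scales; the line marks equal values. Red points are the 2702 IDs called higher in heated shoots, blue points the 1974 called lower and grey points those not called, and the red points reach far higher above the line than the blue points reach below it.

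Control levels at 1 h were lower for rises than for falls, but these levels enter the ratio, which favours this order. Gene IDs called higher had a median of 29.3 FPKM in heated shoots and 6.78 FPKM in control shoots. Those called lower had a median of 5.81 FPKM in heated shoots and 15.2 FPKM in control shoots. To set the calls against a level that did not enter the comparison, the IDs were grouped by their mean in the 4 other control groups. Among 986 IDs with a mean of at least 100 FPKM there, 7.91% were called higher and 14.9% lower at 1 h. Among 7126 IDs between 1 and 5 FPKM, 10.5% were called higher and 5.60% lower. Between 5 and 20 FPKM, 12.7% of 8873 IDs were called higher and 8.98% lower. Between 20 and 100 FPKM, 10.3% of 4906 IDs were called higher and 12.9% lower. From 1 FPKM up, the share called lower grew with level, whereas the share called higher was largest between 5 and 20 FPKM. The filter used heated values too, so it may have removed some falls from the class between 1 and 5 FPKM, which was not tested. The lowest class, below 1 FPKM, had 246 rises and no fall among 677 IDs, but an ID so low in controls met the filter largely through its heated values, so this count had to lean towards rises.

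**Figure D2:**
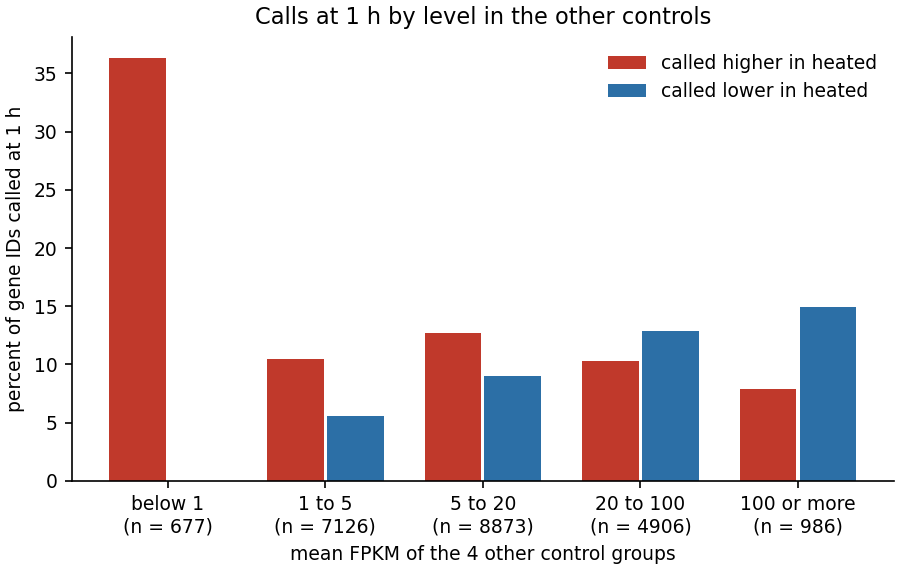
Percent of gene IDs called higher (red) or lower (blue) in heated shoots at 1 h, by their mean FPKM in the 4 control groups of other times; n is the number of IDs in a class. The share called lower is 5.60% between 1 and 5 FPKM and 14.9% at 100 FPKM or more, and the class below 1 FPKM is shaped by the filter on low values.

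Large differences were not always called. A further 193 gene IDs were at least 4-fold higher on the FPKM + 1 scale without a call, with a median q of 0.41 in the authors' deposited table, and 132 of them were below 1 FPKM in control shoots. In the other direction 73 IDs were at least 4-fold lower without a call. Of the compared IDs, 50 were listed at 0 in heated shoots and 59 in control shoots.

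Small heat shock proteins had the highest median ratio of any list. Of 19 listed IDs, 11 rose and none fell by the authors' deposited table. The median over all 19 was 3398 FPKM in heated shoots and 2.61 FPKM in control shoots. OS03G0266900 was the most abundant gene ID of the heated shoots, at 20882 FPKM against 8.42 FPKM in control shoots (log2 ratio 11.11). OS01G0184100 came next, at 19586 FPKM against 12.9 FPKM (log2 ratio 10.46). For both, the q reads 0 in the authors' deposited table. The lowest of the rises, OS06G0219500, still stood at 234 FPKM in heated shoots against 3.60 FPKM in control shoots.

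The 8 small heat shock protein IDs without a call fell into separate kinds. For 5 of them the log2 ratio was 8.27 to 12.33, and each was below 2 FPKM in control shoots. OS03G0266300 had the largest ratio of all gene IDs compared, 13987 FPKM in heated shoots against 1.72 FPKM in control shoots, and its q was 0.19 in the authors' deposited table. The other 3 had log2 ratios of -0.53 to 0.32. OS01G0135900 was at 291 FPKM in heated shoots and 421 FPKM in control shoots, and OS05G0500500 at 18.9 FPKM in heated shoots and 19.02 FPKM in control shoots. OS02G0217900 was low in both, at 0.37 FPKM in heated shoots and 0.10 FPKM in control shoots. Of the 19 IDs, 18 met the filter on low values, but only 11 averaged 1 FPKM or more in the 5 control groups, so several met it only through their heated values.

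Among 11 IDs listed as HSP70 proteins, 8 rose and none fell by the authors' deposited table. OS01G0840100 reached 16947.5 FPKM in heated shoots against 13.01 FPKM in control shoots (log2 ratio 10.24). OS03G0276500 stood at 14965 FPKM in heated shoots and already at 264 FPKM in control shoots (log2 ratio 5.82). Their levels were thus much closer in heated than in control shoots. The smallest rise was OS11G0703900, at 596 FPKM in heated shoots against 117 FPKM in control shoots (q = 0.04 in the authors' deposited table). OS12G0244100 was not called, at 74.2 FPKM in heated shoots and 78.4 FPKM in control shoots.

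HSP90 and HSP100 IDs ranged as widely. Of 8 IDs listed as HSP90 proteins, 6 rose by the authors' deposited table. OS04G0107900 was at 9710 FPKM in heated shoots and 2.19 FPKM in control shoots, a log2 ratio of 11.57 and the second largest rise among all calls. OS08G0500700, at 10489 FPKM in heated shoots and 49.0 FPKM in control shoots, carried a q shown as 0.05 in the authors' deposited table and was not called. OS09G0482400 was listed at 0 in all 10 groups. Of 7 IDs listed as HSP100 and Clp proteins, 4 were called higher. OS05G0519700 had the largest called rise of all, at 10361 FPKM in heated shoots against 2.09 FPKM in control shoots (log2 ratio 11.71, q reading 0 in the authors' deposited table). The 3 IDs not called had log2 ratios of -0.08 to 0.64, among them OS12G0230100 at 627 FPKM in heated shoots and 476 FPKM in control shoots.

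Chaperonins are ring-shaped folding machines of plastids and mitochondria. Of 7 listed IDs, 6 rose by the authors' deposited table, and the list median was 473 FPKM in heated shoots and 9.05 FPKM in control shoots. OS06G0114000 was at 1175 FPKM in heated shoots and 163 FPKM in control shoots (log2 ratio 2.84). OS10G0462900 had the largest log2 ratio of the list, 5.82, at 473 FPKM in heated shoots and 7.41 FPKM in control shoots. All 4 IDs listed as co-chaperones or as the transcriptional coactivator MBF1c were called higher, with log2 ratios of 6.06 to 10.58. The highest of these was OS04G0352400, at 3449 FPKM in heated shoots and 1.25 FPKM in control shoots.

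Heat stress transcription factors did not move as a block. Of 24 listed IDs, 14 rose and none fell by the authors' deposited table, and the median log2 ratio over the list was 1.37. OS10G0419300 was the most abundant in heated shoots, at 2345 FPKM against 12.3 FPKM in control shoots. OS03G0745000 had the largest ratio, at 1662 FPKM in heated shoots and 0.28 FPKM in control shoots (log2 ratio 10.34). OS06G0565200 stood at 987 FPKM in heated shoots and 0.10 FPKM in control shoots. All 3 were called, their q reading 0 in the authors' deposited table.

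Others of this list had higher levels in control shoots. OS02G0527300 was at 632 FPKM in heated shoots and 28.9 FPKM in control shoots (log2 ratio 4.41). OS03G0161900, the most abundant of the list in control shoots, was at 789 FPKM in heated shoots and 357 FPKM in control shoots, and was not called (q = 0.18 in the authors' deposited table). It shares all its values with another gene ID. OS03G0854500 was not called either, at 19.5 FPKM in heated shoots and 26.8 FPKM in control shoots. Of the 24 IDs, 20 met the filter and 17 averaged 1 FPKM or more in the control groups.

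The unfolded protein response list rose as a whole. All 7 IDs rose by the authors' deposited table, with log2 ratios of 2.05 to 5.33. OS02G0115900, which also stands on the HSP70 list, was at 2116 FPKM in heated shoots and 51.5 FPKM in control shoots. OS04G0402100 was at 1250 FPKM in heated shoots and 87.6 FPKM in control shoots. OS06G0622700 was at 212 FPKM in heated shoots and 20.7 FPKM in control shoots. All 7 averaged 1 FPKM or more in the control groups.

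**Figure D3:**
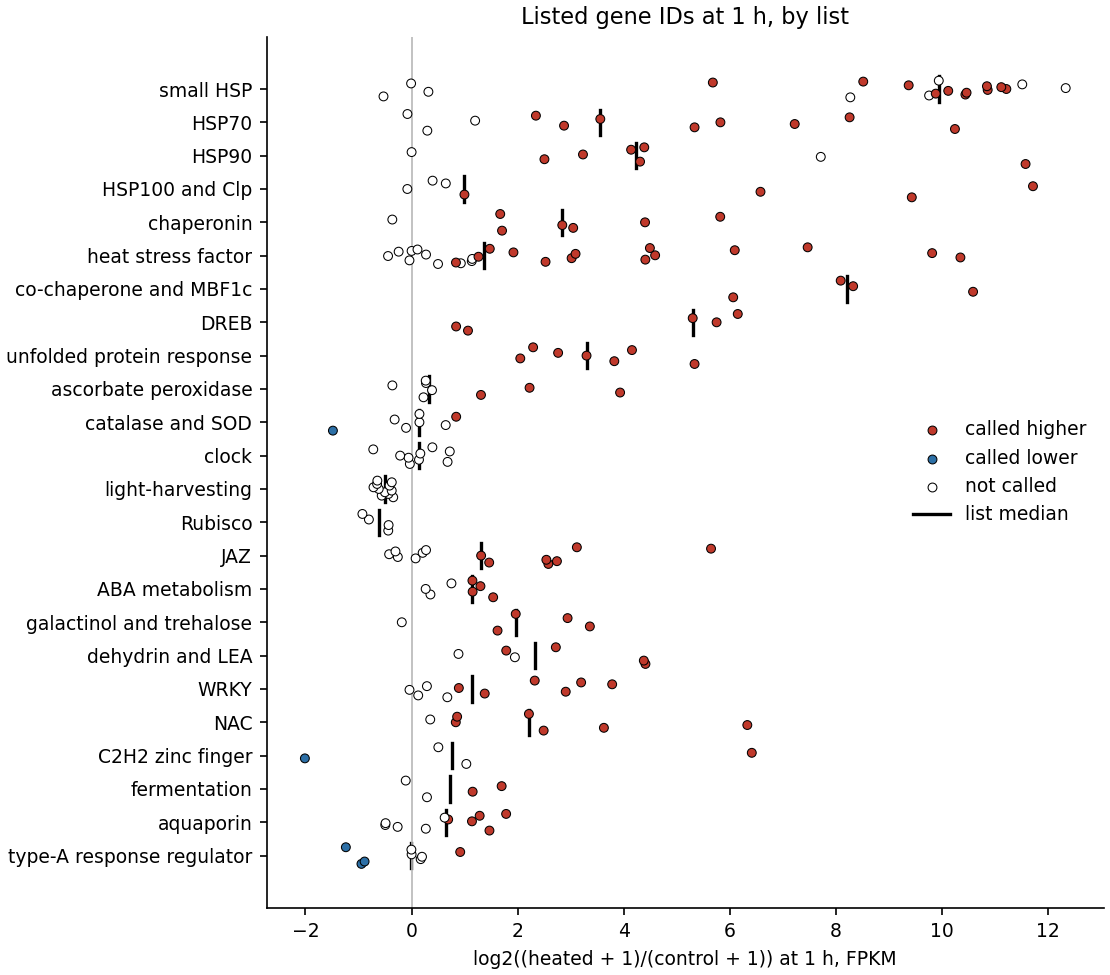
Log2 ratio of heated to control on FPKM + 1 at 1 h for each listed gene ID (points), by list (rows). Red points were called higher, blue points lower and white points were not called, and the bar is the median over the list; the small HSP, co-chaperone and DREB lists have the highest medians, at 9.94, 8.20 and 5.30, and the Rubisco and light-harvesting lists the lowest, at -0.62 and -0.50.

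Genes of stress protection rose in part. Ascorbate peroxidases remove hydrogen peroxide with ascorbate. Of 8 listed IDs, 3 rose and none fell by the authors' deposited table. OS07G0694700 was at 2325 FPKM in heated shoots and 497 FPKM in control shoots (log2 ratio 2.22), and OS04G0223300 at 195 FPKM in heated shoots and 11.9 FPKM in control shoots (log2 ratio 3.93). The 5 IDs without a call had log2 ratios of -0.36 to 0.38.

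Catalases and superoxide dismutases, which also deal with reactive oxygen, gave 1 rise and 1 fall among 7 IDs in the authors' deposited table. The fall was OS02G0115700, at 446 FPKM in heated shoots and 1249 FPKM in control shoots (log2 ratio -1.48). It was the only listed ID above 100 FPKM in control shoots that was called lower. The rise was OS07G0665200, at 211 FPKM in heated shoots and 117 FPKM in control shoots. Over all compared gene IDs 12% were called higher and 8.75% lower, so single calls among 7 IDs do not set this list apart.

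Of 5 IDs listed for the synthesis of galactinol and trehalose, sugars made under stress, 4 rose by the authors' deposited table. OS03G0316200 was at 590 FPKM in heated shoots and 56.6 FPKM in control shoots. Dehydrins and other LEA proteins protect cells during water loss, and 4 of 6 listed IDs were called higher. OS02G0669100 was at 2865 FPKM in heated shoots and 134 FPKM in control shoots (log2 ratio 4.41). OS05G0542500 was at 96.9 FPKM in heated shoots and 3.71 FPKM in control shoots (log2 ratio 4.38). The 2 IDs without a call had log2 ratios of 0.88 and 1.95.

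Some IDs listed as transcription factors or regulators of other stress responses also differed, and for several of them the control level differed between sampling times too. All 5 IDs listed as DREB factors, which bind dehydration- and cold-response promoters, rose by the authors' deposited table. OS09G0522200 was at 489 FPKM in heated shoots and 5.91 FPKM in control shoots at 1 h (log2 ratio 6.15). At 20 min, after 10 min at 30 °C, the same ID was at 337 FPKM in heated shoots and 445 FPKM in control shoots (q = 0.42 in the authors' deposited table). OS09G0522000 was at 210 FPKM in heated shoots and 4.36 FPKM in control shoots at 1 h, and at 322 FPKM in heated shoots and 500 FPKM in control shoots at 20 min. For these IDs the ratio at 1 h goes with a control level far below that of 20 min.

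JAZ proteins repress jasmonate responses. Of 13 listed IDs, 7 rose and none fell at 1 h in the authors' deposited table, whereas at 20 min none was called higher and 5 were called lower. OS10G0391400 had the largest log2 ratio, 5.64, at 158 FPKM in heated shoots and 2.18 FPKM in control shoots. OS03G0181100 was at 322 FPKM in heated shoots and 47.4 FPKM in control shoots at 1 h. At 20 min it was at 46.4 FPKM in heated shoots and 318 FPKM in control shoots. Its heated level at 1 h was thus close to the control level at 20 min. OS03G0402800, the most abundant in heated shoots, was at 1354 FPKM in heated shoots and 232 FPKM in control shoots. Among all compared gene IDs, 12% were called higher at 1 h, and 3.43% higher and 6.25% lower at 20 min.

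WRKY factors, many of them regulators of defence, gave 6 rises and no fall among 10 listed IDs at 1 h in the authors' deposited table. At 20 min there had been no rise and 8 falls. Over all compared gene IDs, 12% were called higher at 1 h, and 3.43% higher and 6.25% lower at 20 min. Heated shoots had list medians of 8.55 FPKM at 20 min, 33.1 FPKM at 1 h and 9.33 FPKM at 2 h. In control shoots it was 49.6 FPKM at 20 min, 13.9 FPKM at 1 h and 6.35 FPKM at 2 h. OS02G0181300 was at 185 FPKM in heated shoots and 23.8 FPKM in control shoots at 1 h, and at 11.3 FPKM in heated shoots and 111 FPKM in control shoots at 20 min. OS06G0649000 had the largest log2 ratio of the list at 1 h, 3.78.

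Of 7 IDs listed as NAC factors, 6 rose by the authors' deposited table, with log2 ratios of 0.83 to 6.33. OS03G0815100 was at 2464 FPKM in heated shoots and 29.7 FPKM in control shoots. OS01G0884300 was at 1250 FPKM in heated shoots and 100.5 FPKM in control shoots. Among 4 IDs listed as C2H2 zinc finger factors, OS03G0820300 was called higher, at 747 FPKM in heated shoots and 7.79 FPKM in control shoots. OS03G0786400 of the same list was called lower, at 3.69 FPKM in heated shoots and 17.9 FPKM in control shoots (log2 ratio -2.01, q reading 0 in the authors' deposited table). Single calls among 4 IDs do not set that list apart from all compared gene IDs, of which 12% were called higher and 8.75% lower.

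**Figure D4:**
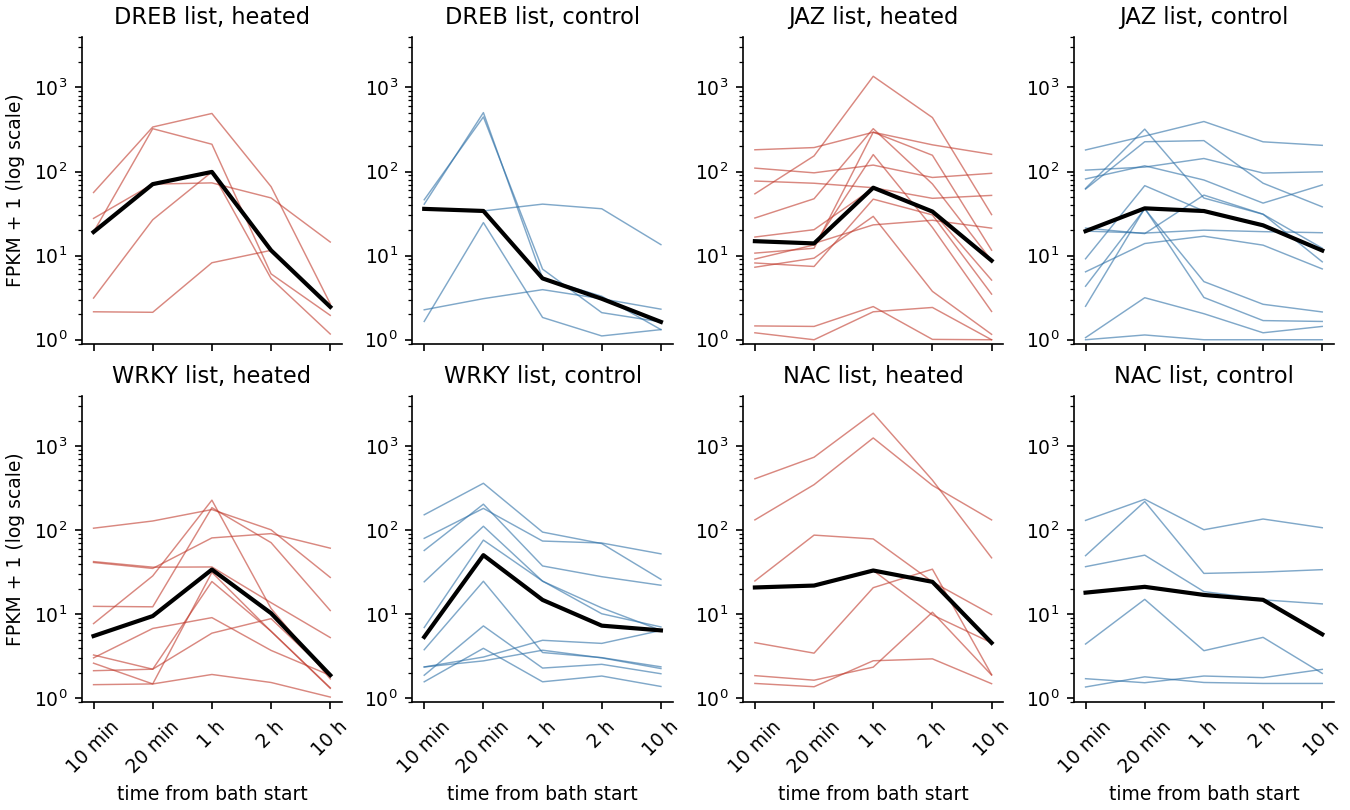
FPKM + 1 (log scale) over the 5 sampling times for the listed DREB, JAZ, WRKY and NAC IDs, in heated shoots (red) and control shoots (blue); thin lines are single IDs and the black line is the list median. The WRKY median is highest at 1 h in heated shoots, at 33.1 FPKM, and at 20 min in control shoots, at 49.6 FPKM.

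For the synthesis and breakdown of abscisic acid, a stress hormone, 4 of 7 IDs rose by the authors' deposited table, with log2 ratios of 1.15 to 1.54. OS02G0703600 was at 103 FPKM in heated shoots and 34.8 FPKM in control shoots. Aquaporins are water channels of the plasma membrane and vacuole, and 5 of 10 IDs were called higher and none lower. OS03G0146100 was at 1493 FPKM in heated shoots and 678 FPKM in control shoots (log2 ratio 1.14). Type-A response regulators, which are induced by cytokinin and dampen its signal, gave 3 falls and 1 rise among 8 IDs. The largest of the falls, OS12G0139400, was at 7.10 FPKM in heated shoots and 18.1 FPKM in control shoots (log2 ratio -1.24). Of 4 IDs listed for fermentation, a pathway used when oxygen is short, 2 were called higher. OS11G0210300 was at 82.2 FPKM in heated shoots and 24.7 FPKM in control shoots. The other rise, OS05G0469600, was at 1.22 FPKM in heated shoots and listed at 0 in control shoots. Its mean over the 10 groups was 0.226 FPKM, under the filter. Beside these counts, 12% of all compared gene IDs were called higher and 8.75% lower. The lists of this paragraph also hold IDs under the filter, and they were not tested against these shares.

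The clock list gave no call in either direction among 9 IDs in the authors' deposited table, with log2 ratios of -0.72 to 0.72. OS01G0182600 was at 509 FPKM in heated shoots and 521 FPKM in control shoots. OS08G0157600 had the highest ratio, at 47.5 FPKM in heated shoots and 28.5 FPKM in control shoots (q = 0.06 in the authors' deposited table). OS01G0971800 had the lowest q, shown as 0.05 in the authors' deposited table, at 34.0 FPKM in heated shoots and 20.9 FPKM in control shoots. An absence of calls does not show that these levels were equal.

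No light-harvesting or Rubisco ID was called in the authors' deposited table, but all 15 that were compared had lower values in heated shoots. The log2 ratios of the 11 light-harvesting IDs lay between -0.72 and -0.35 with q of 0.57 to 0.90, and those of 4 Rubisco small subunit IDs between -0.93 and -0.43. For OS12G0274700, the most abundant of control shoots, the values were 9197 FPKM in heated shoots and 12477 FPKM in control shoots. Together these 15 IDs took 6.60% of all FPKM in heated shoots and 13.4% in control shoots. The 56 IDs of the chaperone lists took 17.3% in heated shoots and 0.330% in control shoots. Shares of this kind are tied to each other, since they are taken of the same sum, and that sum was larger in heated shoots. The remaining ID of the Rubisco list was left out because its deposited fold change departed from its FPKM values; its log2 ratio from FPKM was 0.48, in the other direction.

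Among the 20 most abundant distinct gene IDs of heated shoots, 11 stood on chaperone lists and 4 on the photosynthesis lists. In control shoots none stood on chaperone lists and 11 on the photosynthesis lists, and 7 IDs were among the top 20 of both groups. The top 20 took 19.7% of all FPKM in heated shoots and 19.5% in control shoots. The makeup of the top 20 thus differed, with chaperone IDs in place of photosynthesis IDs.

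**Figure D5:**
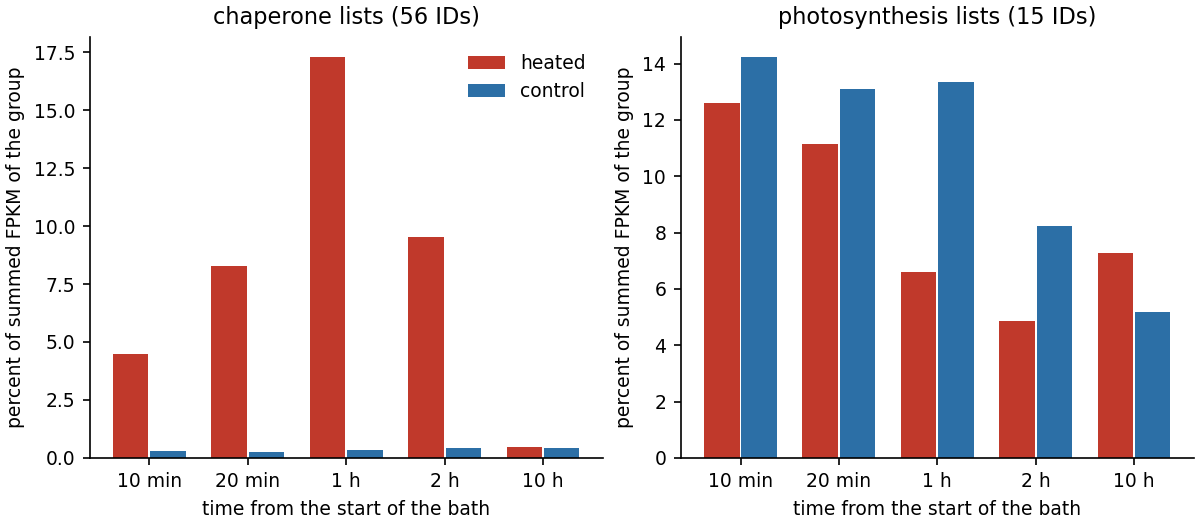
Percent of the summed FPKM of a group taken by the 56 IDs of the chaperone lists (left) and the 15 IDs of the light-harvesting and Rubisco lists (right), in heated shoots (red) and control shoots (blue) at each time from the start of the bath. The chaperone bar of heated shoots is tallest at 1 h, at 17.3% against 0.330% in control shoots, and the photosynthesis bar of heated shoots at that time is at 6.60% against 13.4%.

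The 2 largest falls called at 1 h were both unlisted. OS03G0108300 was at 1.85 FPKM in heated shoots and 48.5 FPKM in control shoots (log2 ratio -4.12, q reading 0 in the authors' deposited table). OS08G0262500 was at 1.59 FPKM in heated shoots and 39.2 FPKM in control shoots (log2 ratio -3.96, q reading 0 in the authors' deposited table). At 2 h OS08G0262500 was still at 1.43 FPKM in heated shoots against 32.2 FPKM in control shoots, and at 10 h it was at 31.0 FPKM in heated shoots and 33.1 FPKM in control shoots. Of the 12 largest falls none stood on a list, whereas 8 of the 12 largest rises did. The lists were chosen with earlier results of these data known, so this contrast cannot be read apart from that choice. Among these rises OS02G0260000, OS02G0259900 and OS02G0259850 share all their values. Of these 12 falls, 5 had also been called lower and 1 higher at 20 min, and 11 were called lower at 2 h in the authors' deposited table.

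The calls at 1 h were set beside those of the neighbouring times. At 20 min 9.68% of the compared gene IDs were called, 3.43% higher and 6.25% lower, in the authors' deposited table, and at 2 h 18.9% were called, 11.9% higher and 6.99% lower. Of the 2702 rises at 1 h, 474 (17.5%) were also rises at 20 min and 1659 (61.4%) at 2 h. These made up 61.2% of the 775 rises at 20 min and 61.9% of the 2679 rises at 2 h. Of the 1974 falls at 1 h, 443 (22.4%) were also falls at 20 min and 681 (34.5%) at 2 h. They were 31.4% of the 1410 falls at 20 min and 43.2% of the 1578 falls at 2 h. The differences between times were not tested, since no value per library was given.

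A large part of the calls was made at 1 h and at neither neighbour. This held for 787 (29.1%) of the rises and 1040 (52.7%) of the falls. Over all compared gene IDs 9.68% were called at 20 min and 18.9% at 2 h, so most IDs had no call at either time. The 787 rises had median log2 ratios of 1.29 at 1 h, 0.16 at 20 min and 0.47 at 2 h. The 1040 falls had medians of -1.01 at 1 h, -0.24 at 20 min and -0.30 at 2 h. At the other end, 333 gene IDs were called higher at all 3 times, with medians of 168 FPKM in heated shoots and 8.76 FPKM in control shoots at 1 h. A call missed at 1 time and made at another does not show a difference between those times.

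Of the rises, 233 (8.62%) had been called lower at 20 min in the authors' deposited table, beside 6.25% of all compared gene IDs called lower at that time. Heated shoots had medians of 8.97 FPKM at 20 min, 32.2 FPKM at 1 h and 14.4 FPKM at 2 h. In control shoots it was 23.8 FPKM at 20 min, 9.30 FPKM at 1 h and 6.99 FPKM at 2 h. Both groups thus moved between 20 min and 1 h, in opposite directions, though picking IDs by calls at both times favours such values. The 233 included 5 IDs of the JAZ list, 5 of the WRKY list, 2 of the NAC list and 1 of the abscisic acid list. Of the falls, 14 (0.709%) had been called higher at 20 min, beside 3.43% of all compared gene IDs.

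Over the 2702 rises, most of the step from 20 min lay in the heated shoots. The median log2 ratio of 1 h to 20 min was 1.38 in heated shoots and -0.04 in control shoots. Over the 1974 falls it was -0.54 in heated shoots and 0.20 in control shoots. Among the 3 times, the heated level was highest at 1 h in 1993 of the rises and at 2 h in 527. These values describe IDs chosen by their 1 h levels, which favours an extreme at 1 h.

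The lists differed in where their heated median stood highest. The small heat shock proteins had a heated median of 1109 FPKM at 20 min, 3398 FPKM at 1 h and 897 FPKM at 2 h. HSP70 IDs were at 160 FPKM at 20 min, 678 FPKM at 1 h and 564 FPKM at 2 h in heated shoots. The unfolded protein response list was at 80.2 FPKM at 20 min, 275 FPKM at 1 h and 325 FPKM at 2 h in heated shoots, so its median was higher at 2 h than at 1 h. Its control median was 39.6 FPKM at 1 h and 80.3 FPKM at 2 h, and its median log2 ratio 3.30 at 1 h and 2.67 at 2 h. Its members went either way in heated shoots. OS02G0115900 was at 2116 FPKM at 1 h and 1298 FPKM at 2 h, and OS11G0199200 at 483.5 FPKM at 1 h and 787 FPKM at 2 h. Dehydrin and LEA IDs were at 1.38 FPKM at 20 min, 18.3 FPKM at 1 h and 18.5 FPKM at 2 h. OS05G0542500 of that list was at 382 FPKM in heated shoots and 2.49 FPKM in control shoots at 2 h, above its 96.9 FPKM in heated shoots at 1 h.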

How the data were processed

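Total RNA of rice shoots was sequenced on an Illumina instrument, per the labels' protocols. Reads were handled with cutadapt, TopHat2 and Cufflinks on the build IRGSP-1.0, per the submitters' processing notes, and no versions are stated. The authors deposited FPKM values, 1 per group of 2 libraries. Per the file headers, each time also has a q-value and a log2 fold change score. The q-values are printed with 2 decimals. How the q-values were tested, and whether counting used strand, was not given in the sources used here, so reads of overlapping or near-identical genes stay as the authors assigned them.

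Computed here with Python 3.11.15, pandas 2.3.3 and numpy 2.4.6 were the row of highest mean per gene ID, log2 ratios with a pseudocount of 1 FPKM, and counts and medians. Among IDs averaging 1 FPKM or more, 136 were left out because, at a time where both groups reached 1 FPKM, the FPKM ratio and the authors' deposited log2 value lay over 0.1 apart. The deposited log2 values were used for this check only. Percentages of all FPKM take each distinct set of values once. Of the compared IDs 2861 share all their values with another ID. None of the IDs matched the reference table of gene names (0 of 37248). The steps were tested on simulated data with planted ratios, duplicate rows and calls.

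Named IDs were the 2 largest rises and falls among the calls, and members of the lists, chiefly their most abundant or most changed. List descriptions take every listed ID, not only those past the filter as first planned. The members and lists were chosen with earlier results of these data known, and some list members named as examples were picked after their values were seen. Of the list members 14 share their values with another ID or are at 0 throughout. No table column of other samples was present (0). Alternatives changed the pseudocount to 0.1, dropped the filter or raised it to 5 FPKM, and used summed rows, rescaled groups, a q below 0.01, a required 2-fold change and, added after seeing the data, each distinct set of values counted once.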

Additional observations from a re-analysis of the deposited data

Results flagged for a closer look

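Some gene IDs below the filter were also called. Of 11298 IDs with a mean above 0 and below 1 FPKM, 404 were called higher and 75 lower in heated shoots at 1 h in the authors' deposited table. These are smaller shares than the 12% called higher and 8.75% called lower among the compared gene IDs. The 404 had a median of 1.05 FPKM in heated shoots and 0 FPKM in control shoots, and 214 of them were listed at 0 in control shoots.

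Where an ID stood on several rows, the rows that were not used seldom went against the one used. Among 3365 such rows averaging 1 FPKM or more, 105 were called higher and 48 lower at 1 h in the authors' deposited table. Both are smaller shares than the 12% higher and 8.75% lower among the rows used, so most unused rows had no call to compare. Of the called rows, 48 were higher together with the row used and 19 lower together with it. Against its direction went 2 rows. The other called rows had no call in the row used, so for their IDs the call depends on the row taken.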

How the results depend on the processing

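No paired analysis was possible because the table gives 1 value per group, so neither a replicate block nor leaving out a replicate could be run, and no interval covers the spread between libraries. The count of rises at 1 h, 2702, stayed within 1.5 times under the 6 alternatives that could change it (1965 to 3106), and that of falls, 1974, under 5 of them (1517 to 2049). The pseudocount and rescaling could not change these counts, which rest on the authors' deposited q-values. With q below 0.01 the falls were 1055. As q has 2 decimals, this setting keeps only IDs whose q is shown as 0. Summing the rows per ID changed the sign of 2 called genes. Rescaling moved the median log2 ratio of all compared genes by 0.06. Median log2 ratios of lists moved by over a 1.5-fold ratio with a pseudocount of 0.1 for small heat shock proteins (10.89), heat stress factors (2.09), dehydrin and LEA (3.24) and seed markers (1.08). Over members past the filter alone they moved for HSP70 (4.44), heat stress factors (2.22) and root markers (0.82). Of the heat stress factors 20 passed the filter and 17 averaged 1 FPKM or more in the control groups, so some passed through heated values. For HSP70 and root markers these 2 counts were equal, at 10 and 1. The sign of the median changed for the clock list with summed rows (-0.03) and for the type-A response regulators on rescaling (0.03).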

Other observations

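Calls at 1 h were spread over the genome as far as the IDs show it. Across the 12 chromosome numbers in the gene IDs, 8.39% to 14.3% of compared IDs were called higher and 7.28% to 11.5% lower in the authors' deposited table. These ranges were not tested.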
